A study of Mus musculus with 6 samples.

Results

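The genes described here are 32 genes of DNA replication and of the G1/S transition, taken by name from the deposited gene count table of 45706 genes. All 32 matched exactly 1 row, and all 32 passed the filter on low counts that left 14069 genes for testing. The table holds 6 mouse liver libraries, 3 labelled wild type (WT 1, WT 2 and WT 3) and 3 labelled knockout for Entpd8 (KO 1, KO 2 and KO 3), the gene of the ectonucleotidase NTPDase8. The series is about this enzyme in ischemia-reperfusion injury of the liver, but the labels do not say whether these livers had been made ischemic. The sources used here give no strain, sex, age or sampling time, and neither the design of the knockout allele nor the cells that carry it. Nor do they tie each library to its own mouse, so the p-values cover only library-to-library spread, part of which may be technical.

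Before S phase, Cdc6 and Cdt1 load the ring-shaped helicase Mcm2 to Mcm7 onto replication origins. Cyclin-dependent kinases then start the helicase with Cdc45, the GINS complex and Mcm10, and the polymerases, the clamp Pcna and the clamp loader copy the DNA. Many of these genes are switched on together by E2F transcription factors late in G1. Most hepatocytes of an adult liver are not dividing, and these genes rise when the liver regenerates or when other liver cells proliferate.

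Library totals ran from 32768774 to 46473531 expected counts, with all 3 knockout libraries above all 3 wild-type libraries. Entpd8 had 1416, 876 and 2034 counts in WT 1, WT 2 and WT 3 and 15, 29 and 52 in KO 1, KO 2 and KO 3, as the labels say. The hepatocyte marker Alb was present in every library at 34244 to 53964 CPM (counts scaled to library size by the TMM method). Mitochondrially encoded transcripts made up 6.52% to 8.34% of the wild-type and 10.1% to 11.7% of the knockout libraries, and hemoglobin transcripts 0.0308% to 0.0486% and 0.0997% to 0.145%. With these genes left out of the fit, the same 6 of the 32 genes passed the test (20.4% of all genes did). That run removes only their part in the fit and its scaling. Whether the livers differed in other ways that go with these shares was not tested.

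The E2F recognition sequence was looked for in the promoters first, because it is the feature through which these genes are known to be controlled together. RefSeq windows (build GRCm38.p6) from 250 bases before to 50 bases after the start were found for 25 of the 32 genes. The words searched on both strands were TTTCCCGC, TTTCGCGC, TTTGCCGC and TTTGGCGC, which can overlap one another. They occurred in a window of 11 of the 25 genes (44.0%), against 704 of 27025 genes in the whole table (2.60%). The 11 were Cdc6, Cdk2, Cdt1, Lig1, Mcm3, Mcm5, Mcm6, Mcm7, Pola1, Pold1 and Rfc3. By contrast, 1 of 22 mitosis genes with a window held such a word, while 18 of the 22 (81.8%) held TTTGAA or TTCGAA, the words of the CHR element. Among the 25 replication genes that share was 24%, against 21.7% of all genes. The CCAAT box, CCAAT on either strand, was in 16 of the 25 (64.0%) and in 41.1% of all genes. Words can also occur by base composition, and a match does not show that a factor binds there. Nor does the lack of an exact word in these windows show that no factor binds.

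The stretches below are those of the 2 genes that differed between genotypes and held a word before the start, Cdk2 and Cdc6, and of 2 genes that did not pass and held more than 1 word there, Mcm5 and Mcm6 (the latter pair chosen after their values were seen). Of the 6 genes that differed, 5 had a window and 2 of these held a word. Mcm2, Pcna and Rrm2 held none, and Ccne2 had no window. The median log2 fold change (knockout over wild type) was -0.03 for the 11 genes with a word. It was 0.04 for the 14 with a window and no word. Capitals mark the words, each sequence is 5′ to 3′ on the gene's strand, and positions are GRCm38.p6.
Cdk2, chr10:128705052-128705201, minus strand: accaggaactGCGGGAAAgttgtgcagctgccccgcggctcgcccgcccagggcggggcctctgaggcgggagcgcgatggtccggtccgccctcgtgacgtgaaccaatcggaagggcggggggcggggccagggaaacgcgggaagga
Cdc6, chr11:98908003-98908150, plus strand: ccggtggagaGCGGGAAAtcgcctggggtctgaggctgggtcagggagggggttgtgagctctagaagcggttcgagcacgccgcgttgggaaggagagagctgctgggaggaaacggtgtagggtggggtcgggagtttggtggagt
Mcm5, chr8:75109346-75109495, plus strand: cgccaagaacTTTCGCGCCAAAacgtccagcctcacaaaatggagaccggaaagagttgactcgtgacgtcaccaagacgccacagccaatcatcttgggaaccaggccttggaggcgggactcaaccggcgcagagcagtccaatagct
Mcm6, chr1:128359706-128359845, minus strand: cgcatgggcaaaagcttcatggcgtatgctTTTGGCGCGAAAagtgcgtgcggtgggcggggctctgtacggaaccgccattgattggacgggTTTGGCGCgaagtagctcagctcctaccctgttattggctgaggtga

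In Cdk2 and Cdc6 the word begins 140 and 138 bases before the RefSeq start. The run in Mcm5 is made of 2 overlapping words on opposite strands, and Mcm6 holds 3 words, of which 2 overlap. The Cdc6 stretch lies within the gene as GENCODE M21 annotates it, before the RefSeq start, in an intron of a longer transcript. The far end of the Cdk2 stretch reaches into the first exon of a Pmel transcript on the other strand, while the Mcm5 and Mcm6 stretches meet no annotated gene.

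The main comparison asked whether the replication and G1/S genes differed between knockout and wild-type livers. They did not move as a group: 4 rose (Rrm2, Cdc6, Ccne2 and Pcna), 2 fell (Cdk2 and Mcm2) and 26 did not pass the test. Genes were tested with the quasi-likelihood method of edgeR, two-sided, with Benjamini-Hochberg adjustment over 14069 genes and a threshold of 0.05. It called 9.8% of all genes higher and 10.6% lower in knockout livers, 20.4% in all, and 18.8% of these 32, a share near the background. The median log2 fold change (knockout over wild type) of the 32 was -0.02, and that of all genes tested was also -0.02. The 3 knockout and 3 wild-type libraries did not overlap for 8 of the 32 genes (25%), against 40.7% of all genes. Of the 26 genes that did not pass, 24 had a log2 fold change within 0.5 of 0. Their SEs reached 0.58 (Mcm10), so a value near 0 does not show that a gene was unchanged. The median absolute log2 fold change was 0.32 for the 32 genes and 0.34 for all genes tested.

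How many of the 32 passed moved with the setting, as did the share of all genes called. The number was 7 with DESeq2 (25.8% of all genes), 4 with limma voom (19.9%) and 4 with library totals alone (18.5%). At a threshold of 0.1 it was 4 lower and 4 higher, against 16% and 14.1% of all genes. It was 3, 6 and 3 without WT 1, WT 2 and WT 3 (11.5%, 21.3% and 14.1% of all genes) and 0, 3 and 2 without KO 1, KO 2 and KO 3 (4.2%, 11.1% and 12.2%). With the library number as a block it was 2, against 10.4%. Non-overlap was lower in knockout livers for 4 of the 32 genes (22% of all genes) and higher for 4 (18.7%).

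**Figure D1:**
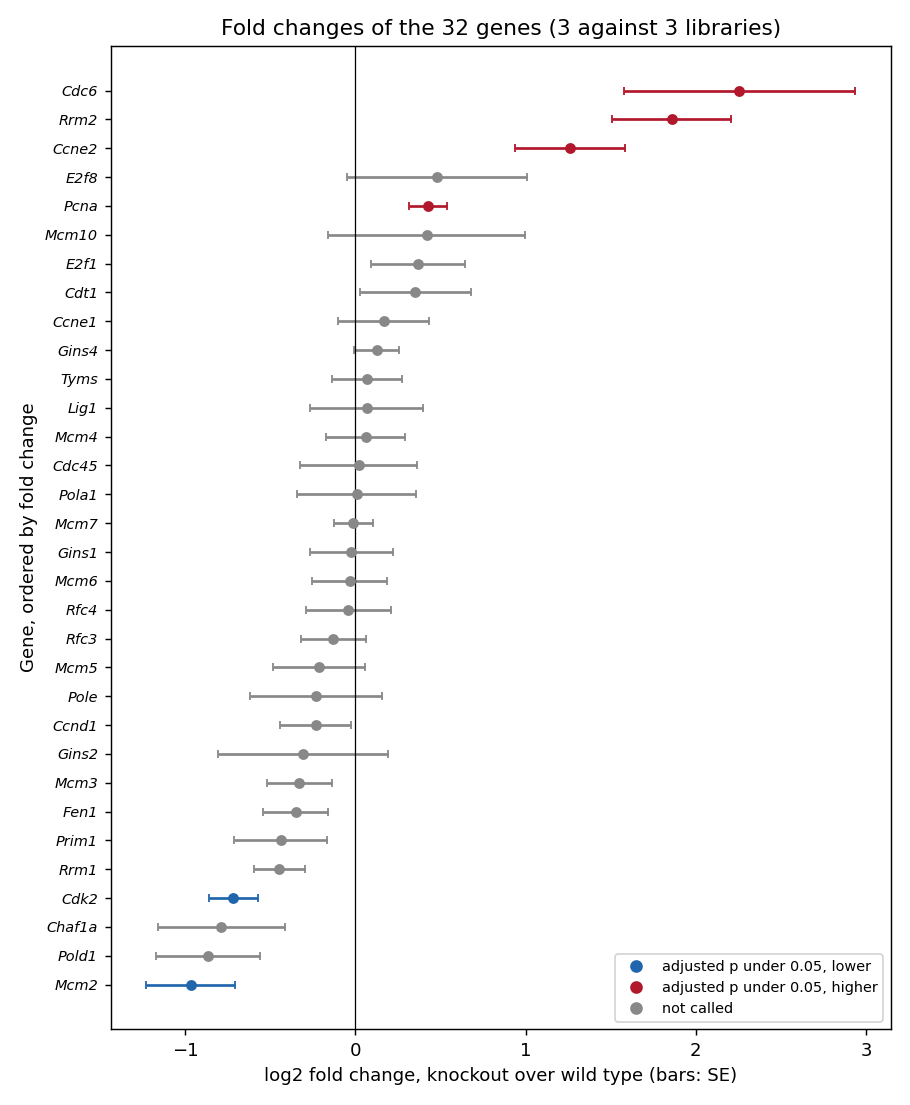
Log2 fold change (knockout over wild type, x axis) of each of the 32 genes (y axis), with bars of 1 SE from edgeR, 3 libraries per group. Cdk2 and Mcm2 passed below 0, Pcna, Ccne2, Rrm2 and Cdc6 passed above 0, and the other 26 genes, in grey, did not pass.

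Among the genes of nucleotide supply, Rrm2 rose and its partner Rrm1 did not pass. Rrm2 encodes the small subunit of ribonucleotide reductase, the enzyme that makes deoxyribonucleotides, and lies on chromosome 12 from 24708241 to 24714146 (GRCm38, GENCODE M21, as for the other genes). Its levels were 7.71, 6.05 and 3.86 CPM in WT 1, WT 2 and WT 3 and 21.8, 29.2 and 12.9 CPM in KO 1, KO 2 and KO 3. Every knockout library was above every wild-type library, and both groups varied about 2-fold within themselves. The log2 fold change was 1.86 ± 0.35 (SE), a 3.62-fold rise, with adjusted p = 0.0138 in edgeR, and it did not pass without KO 1 (adjusted p = 0.0584). Rrm1, the large subunit, ran from 7.25 to 8.79 CPM in wild-type and from 5.61 to 6.18 CPM in knockout libraries. Its groups did not overlap either, in the opposite direction to Rrm2, but its log2 fold change of -0.45 ± 0.15 did not pass (adjusted p = 0.0697). Tyms, thymidylate synthase, was among the steadiest genes in wild-type livers, with 4.79, 4.30 and 4.53 CPM in WT 1 to WT 3 and 4.53, 5.88 and 3.87 CPM in KO 1 to KO 3 (adjusted p = 0.847). GENCODE names a pseudogene of Tyms and 2 of Pcna, between which reads could be divided.

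Among the G1/S regulators of the list, Ccne2 rose and Cdk2, the kinase it activates, fell. Cyclin E and Cdk2 together phosphorylate the retinoblastoma protein and start S phase. Ccne2 (chromosome 4, 11191351 to 11204779) was measured at 0.992, 0.512 and 0.833 CPM in WT 1 to WT 3 and at 1.58, 1.87 and 2.15 CPM in KO 1 to KO 3. All knockout values were above all wild-type values, with 20 to 36 counts per wild-type and 62 to 102 per knockout library. The rise of 1.26 ± 0.32 on the log2 scale (SE) had adjusted p = 0.0311 in edgeR. It no longer passed without WT 3 or without any 1 knockout library (adjusted p up to 0.0842), nor with the library number as a block (adjusted p = 0.0690). Exons of Ccne2 overlap Ints8 on the other strand over 609 bases, and whether the counts kept strands apart is not stated. Ccne1, which encodes the other E-type cyclin, had a log2 fold change of 0.17 ± 0.27 (adjusted p = 0.694).

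Cdk2 (chromosome 10, 128697939 to 128705031) had the smallest wild-type SD of log2(CPM + 0.5) among the genes that passed, 0.099. It was at 9.26, 9.10 and 10.4 CPM in WT 1 to WT 3 and at 5.85, 5.46 and 6.16 CPM in KO 1 to KO 3, a clear gap between the groups. The log2 fold change was -0.72 ± 0.14 (SE, adjusted p = 0.0145, edgeR), and without KO 1 it did not pass (adjusted p = 0.0764). Cyclin D1, Ccnd1, which links growth signals to the cell cycle, spanned 14.0 to 18.5 CPM in wild-type and 11.1 to 17.9 CPM in knockout libraries. With a log2 fold change of -0.23 ± 0.21 it did not pass (adjusted p = 0.460), and KO 3 alone of the knockout libraries lay within the wild-type range. Exons of Ccnd1 overlap LTO1 on the other strand over 1100 bases. E2f1, an activator of this gene set, was at 1.61 to 2.29 CPM in wild-type and 1.96 to 3.09 CPM in knockout livers (log2 fold change 0.37 ± 0.28, adjusted p = 0.379).

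Among the genes that load and start the helicase, Cdc6 rose from very low counts and the other 6 did not pass. Cdc6 (chromosome 11, 98907801 to 98923940) is the loading factor that joins the origin recognition complex in G1. It had 2, 8 and 8 counts in WT 1 to WT 3 and 26, 12 and 65 counts in KO 1 to KO 3, or 0.0551 to 0.222 CPM and 0.299 to 1.37 CPM. The groups did not overlap, but KO 2 lay close to WT 2 and WT 3. Its log2 fold change of 2.26 ± 0.68 (SE) passed narrowly (adjusted p = 0.0498, edgeR). The call held without KO 2 and was lost without any other library (adjusted p up to 0.151), and without KO 3 the log2 fold change was 1.56. It was also lost with upper-quartile scaling, library totals alone, limma voom, no robust estimation or the library number as a block (adjusted p up to 0.0819). A filter of 20 counts removed the gene.

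Cdt1, the partner of Cdc6 in loading, was at 3.94, 1.87 and 3.94 CPM in WT 1 to WT 3 and 4.83, 4.59 and 3.03 CPM in KO 1 to KO 3. WT 2 stood below the other wild-type libraries, and the groups overlapped (log2 fold change 0.35 ± 0.33, adjusted p = 0.478). The GINS subunit gene Gins4 was steady, at 8.79, 7.97 and 8.41 CPM in WT 1 to WT 3 and 9.64, 9.22 and 8.60 CPM in KO 1 to KO 3 (adjusted p = 0.535). Gins1, Gins2 and Cdc45 had log2 fold changes of -0.02, -0.31 and 0.02 (adjusted p of 0.957, 0.696 and 0.978). Gins2 had only 13 to 33 counts per library, and its exons overlap Gse1 on the other strand over 2758 bases.

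Of the 6 helicase subunits, Mcm2 fell and Mcm3, Mcm4, Mcm5, Mcm6 and Mcm7 did not pass. Mcm2 (chromosome 6, 88883474 to 88898780) was at 5.70, 3.18 and 5.69 CPM in WT 1 to WT 3 and 2.42, 2.39 and 2.63 CPM in KO 1 to KO 3. WT 2 was much nearer to the knockout libraries than WT 1 and WT 3 were, although the groups did not overlap. It fell by 0.97 ± 0.26 on the log2 scale (SE), with adjusted p = 0.0366 in edgeR, and the call held only when WT 2 was the library left out (adjusted p up to 0.128 without any other). Neither limma voom (adjusted p = 0.0561) nor edgeR with the library number as a block (adjusted p = 0.0727) called Mcm2. Mcm7 was the steadiest of the 32 genes in wild-type livers, at 14.5, 13.7 and 14.4 CPM in WT 1 to WT 3 against 13.5, 13.7 and 15.0 CPM in KO 1 to KO 3 (log2 fold change -0.01 ± 0.12, adjusted p = 0.947). Mcm3 spanned 4.95 to 6.72 CPM in wild-type and 4.25 to 4.76 CPM in knockout libraries, with no overlap, yet did not pass (log2 fold change -0.33 ± 0.19, adjusted p = 0.253). The log2 fold changes of Mcm4, Mcm5 and Mcm6 were 0.06 ± 0.23, -0.21 ± 0.27 and -0.03 ± 0.22 (adjusted p from 0.609 to 0.928).

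Although the 6 subunits form 1 ring in equal numbers, their transcripts were not equally abundant. Per kilobase of the principal transcript, mean levels in wild-type livers were 4.79 ± 0.158 CPM for Mcm7, 2.07 ± 0.572 for Mcm6, 1.83 ± 0.334 for Mcm3, 1.44 ± 0.432 for Mcm2, 1.43 ± 0.258 for Mcm4 and 0.699 ± 0.207 for Mcm5 (SD, n = 3). Mcm7 stood clear of the others and Mcm5 below them, while the 4 in between lay within each other's spread. In knockout livers Mcm2 was at 0.736 ± 0.0385 CPM per kilobase (SD, n = 3), next to Mcm5 at 0.602 ± 0.0332. Exons of Mcm7 overlap Ap4m1 and Cops6 on the other strand over 321 and 64 bases.

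At the replication fork, Pcna rose slightly and the other 9 genes did not pass. Pcna (chromosome 2, 132249162 to 132253314) encodes the sliding clamp that holds polymerases on DNA and was the most abundant of the 32 genes per kilobase. It was at 25.6, 25.2 and 21.5 CPM in WT 1 to WT 3 and at 32.6, 30.9 and 33.8 CPM in KO 1 to KO 3. The groups were separate, and the log2 fold change was 0.43 ± 0.11 (SE, adjusted p = 0.0346, edgeR), a 1.34-fold rise. The call held without WT 2 and was lost without any other library (adjusted p up to 0.140). It was also lost with library totals alone (adjusted p = 0.0757) and with the library number as a block (adjusted p = 0.0878).

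Pold1, the catalytic subunit of polymerase delta, was the nearest to passing of the fork genes, with a log2 fold change of -0.87 ± 0.30 (adjusted p = 0.0786). It was at 4.13, 2.05 and 3.94 CPM in WT 1 to WT 3 and at 1.78, 1.69 and 2.06 CPM in KO 1 to KO 3, so that WT 2 lay among the knockout values. Without WT 2 it passed (adjusted p = 0.0154), as it did with DESeq2 (adjusted p = 0.0431). The same arrangement was seen in Chaf1a, a subunit of the chromatin assembly factor that follows the fork. Chaf1a was at 3.09, 1.20 and 1.89 CPM in WT 1 to WT 3 and at 1.17, 1.40 and 1.01 CPM in KO 1 to KO 3 (log2 fold change -0.79 ± 0.37, adjusted p = 0.169). Exons of Chaf1a overlap Ubxn6 on the other strand over 4648 bases. Pole, the catalytic subunit of polymerase epsilon, was at 2.01, 0.717 and 1.33 CPM in WT 1 to WT 3, and KO 1 to KO 3 lay between these at 1.20, 1.25 and 1.01 CPM.

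The remaining fork genes had small differences. Log2 fold changes were -0.35 ± 0.19 for the flap endonuclease Fen1 and -0.44 ± 0.27 for the primase subunit Prim1. They were -0.13 ± 0.19 and -0.04 ± 0.25 for the clamp loader subunits Rfc3 and Rfc4, 0.07 ± 0.33 for the ligase Lig1 and 0.01 ± 0.35 for the polymerase alpha subunit Pola1. None of these 6 passed in edgeR (adjusted p from 0.231 to 0.991), nor with DESeq2, limma voom or without any 1 library, and none had an unadjusted p under 0.05. Exons of Fen1 overlap Gm10143 and Tmem258 on the other strand over 1909 and 130 bases. Overlaps of 34 to 247 bases with genes on the other strand were found for Cdc45, Cdk2, Lig1, Pole and Rfc4.

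**Figure D2:**
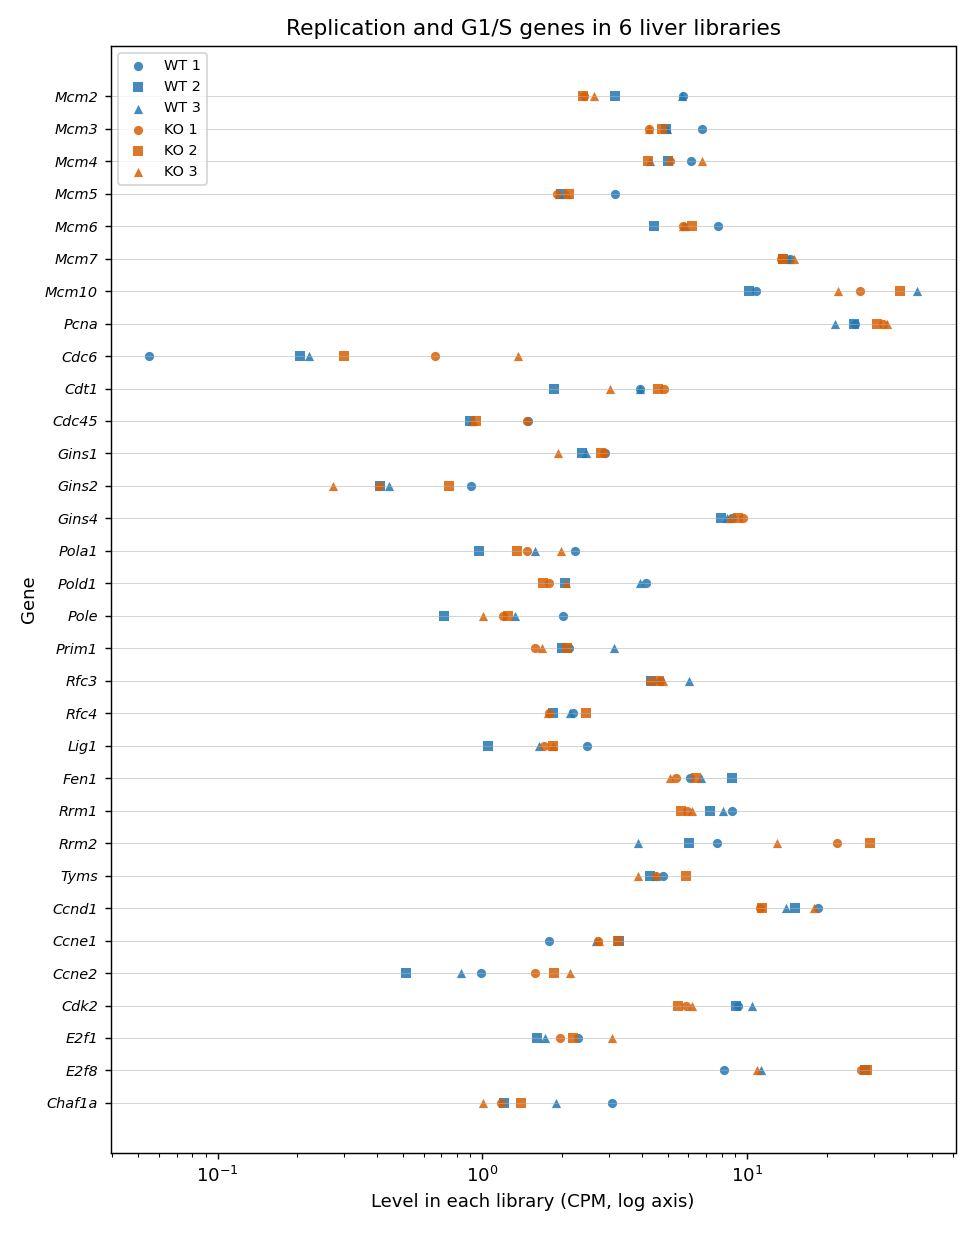
Level of each of the 32 genes (y axis) in each library (x axis, CPM on a log axis), blue for wild type and orange for knockout, with the marker shape giving the library number. Blue and orange points are apart for Mcm2, Mcm3, Pcna, Cdc6, Rrm1, Rrm2, Ccne2 and Cdk2 and mixed for the other 24 genes.

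Mcm10 and E2f8 had the largest SDs of log2(CPM + 0.5) among the wild-type libraries, 1.17 and 0.89, each with 1 library far above the others. Mcm10, which helps to start the helicase, was at 10.8, 10.1 and 43.8 CPM in WT 1 to WT 3 and at 26.6, 37.9 and 22.0 CPM in KO 1 to KO 3. Wild-type values thus differed up to 4.33-fold, the knockout values lay between them, and the gene did not pass (log2 fold change 0.42 ± 0.58, adjusted p = 0.644). Without WT 3 the log2 fold change was 1.46 and passed (adjusted p = 0.0125). E2f8, a repressor among the E2F factors with a known part in hepatocyte polyploidy, was at 8.18, 27.8 and 11.2 CPM in WT 1 to WT 3. In KO 1 to KO 3 it was at 26.9, 28.3 and 10.9 CPM, so both groups held high and low libraries (log2 fold change 0.48 ± 0.53, adjusted p = 0.557). Exons of E2f8 overlap Gm2788 on the other strand over 610 bases. The high wild-type library was WT 3 for Mcm10 and WT 2 for E2f8. Among the knockout libraries, Mcm10, E2f8 and Rrm2 were each highest in KO 2 and lowest in KO 3.

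Most of the other genes shared 1 order among the wild-type livers. WT 1 had the highest level of 23 of the 32 genes (71.9%), against 30.7% of all genes tested, and WT 2 the lowest of 23 (71.9%), against 39.0%. For 18 genes (56.2%) both held at once, against 16.9% of all genes. The median log2 difference of WT 1 over WT 2 was 0.27 for the 32 genes and 0.03 for all genes. These are counts within 3 libraries, with no replicate of WT 1 or WT 2, so they describe these libraries only.

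The median SD of log2(CPM + 0.5) over the 3 wild-type libraries was 0.288 for the 32 genes and 0.203 for all genes tested. Without WT 1 the median for the 32 genes was 0.165 and that for all genes 0.184, so the wider spread was no longer seen. It also narrowed with a pseudocount of 2 CPM (0.186 against 0.154 for all genes). In the knockout libraries the median SD was 0.166 for the 32 genes and 0.159 for all genes.

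**Figure D3:**
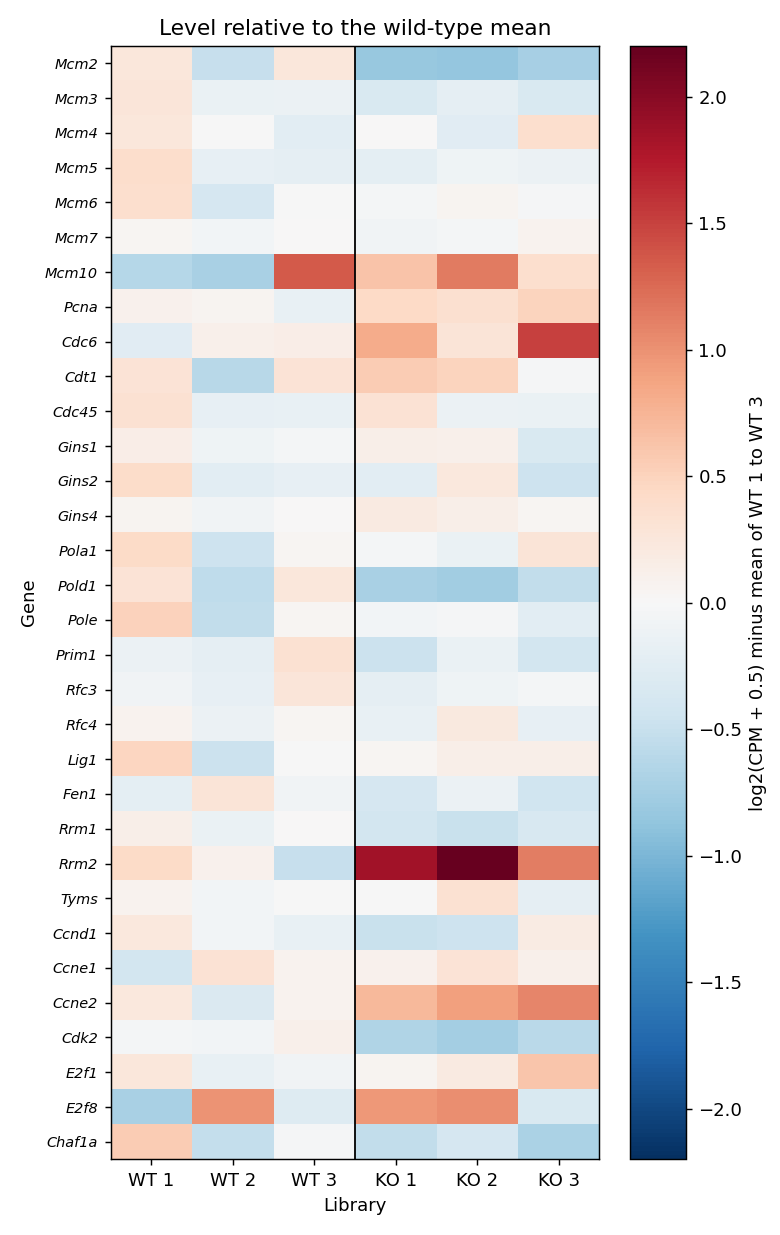
Level of each of the 32 genes (rows) in each library (columns) as log2(CPM + 0.5) minus the mean of WT 1 to WT 3, red for higher and blue for lower. WT 1 is mostly red and WT 2 mostly blue, Mcm10 is red in WT 3, E2f8 in WT 2, and Rrm2 is red in all 3 knockout libraries.

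**Figure D4:**
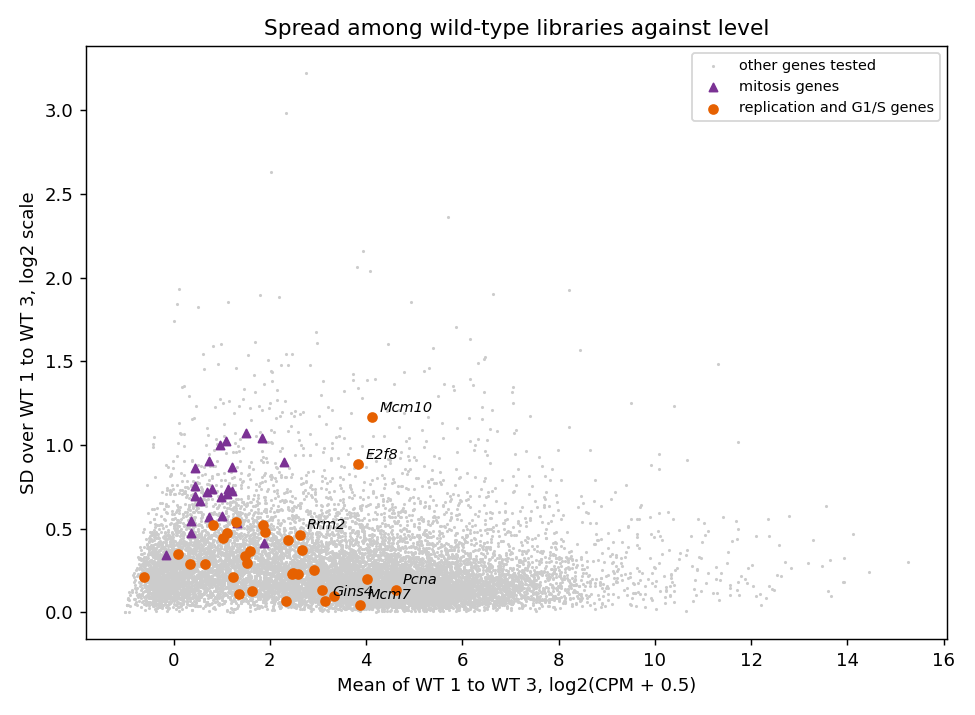
SD over WT 1 to WT 3 (y axis, log2 scale) against mean wild-type level (x axis, log2(CPM + 0.5)) for every gene tested, with the 32 genes in orange and the mitosis genes in purple. Mcm10 and E2f8 stand above the other orange points, Mcm7 and Gins4 lie near 0, and the mitosis genes are higher than most orange points.

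Genes of mitosis, which act later in the cycle, had the same wild-type order and, unlike the replication genes, lay lower in knockout livers. Of 26 such genes 24 could be tested, and 13 fell and 0 rose (54.2% called, against 20.4% of all genes). At an unadjusted p under 0.05 in edgeR, 17 were lower and 0 higher, against 2697 and 2366 of the 14069 genes tested. The mitosis genes had a median log2 fold change of -1.58. DESeq2 called 16 of them lower and limma voom 5 (12.3% and 9.99% of all genes). Both called 0 of them higher (13.5% and 9.91% of all genes). Tpx2, a spindle assembly factor, was at 3.39, 0.922 and 1.80 CPM in WT 1 to WT 3 and 0.509, 0.249 and 0.442 CPM in KO 1 to KO 3 (log2 fold change -2.34 ± 0.52, adjusted p = 0.0202). Cdca8, Kif11 and Ccnb1 fell by 1.87, 1.58 and 2.98 on the log2 scale. WT 1 was highest and WT 2 lowest for all 24, and the summed level of the list was 75.1, 18.9 and 38.4 CPM in WT 1 to WT 3 and 15.5 to 16.0 CPM in the knockout libraries. In this sum WT 1 held about 4 times the level of WT 2, which lay close to the knockout livers. Gene by gene, WT 2 was above all 3 knockout libraries for 13 of the 24 (54.2%, against 36.3% of all genes). It was below all 3 for 4 (16.7%, against 35.1%). Without WT 1 edgeR called 0 of these genes (13 at an unadjusted p under 0.05) with a median of -1.13, and without KO 1 it also called 0 (16 unadjusted) with a median of -1.76. Of the 14069 genes tested, 2283 without WT 1 and 1828 without KO 1 were lower at that unadjusted threshold. The number of mitosis genes called lower was 18 without WT 2, 6 without WT 3 and 1 without KO 2 or KO 3. Of all genes, 5.03%, 11.7% and 6.76% were called lower without WT 1, WT 2 and WT 3. The share was 1.52%, 4.76% and 6.04% without KO 1, KO 2 and KO 3. The difference between the replication and mitosis lists was not itself tested.

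Other genes of the replication pathway were counted by function. Of 19 genes of origin licensing and firing, 17 were tested and 2 passed (11.8%, against 20.4% of all genes). Gins3 fell (-1.66 ± 0.39, adjusted p = 0.0230, edgeR) and Wdhd1, a replisome factor, rose (1.17 ± 0.23, adjusted p = 0.0141). Gins3, the GINS subunit outside the 32 genes, was at 1.85, 0.871 and 1.06 CPM in WT 1 to WT 3 and 0.356, 0.449 and 0.379 CPM in KO 1 to KO 3. Gins3 did not pass without WT 1 or any 1 knockout library (adjusted p up to 0.0996), and Wdhd1 did not without KO 1 (adjusted p = 0.0592). Of 30 further fork and polymerase genes, 27 were tested and 1 passed (3.70%, against 20.4%), the nuclease and helicase Dna2. Dna2 was at 9.75, 8.79 and 14.3 CPM in WT 1 to WT 3 and at 4.73, 4.56 and 3.58 CPM in KO 1 to KO 3, with no overlap (log2 fold change -1.35 ± 0.22, adjusted p = 0.00828). It also passed without any 1 library. Of 18 genes of nucleotide supply 3 passed (16.7%, against 20.4%). Cad, which starts pyrimidine synthesis, fell (-0.82 ± 0.17, adjusted p = 0.0159), but not without KO 1 (adjusted p = 0.0764). The folate enzymes Shmt1 (0.84 ± 0.21, adjusted p = 0.0311) and Mthfd1 (0.57 ± 0.15, adjusted p = 0.0333) rose. Neither passed with library totals alone, without WT 1 or without any 1 knockout library (adjusted p up to 0.112).

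Of 30 other G1/S regulators, 8 fell and 2 rose (33.3%, against 20.4% of all genes), with a median log2 fold change of -0.31. Myc, a growth-promoting transcription factor, rose from 7.96, 8.17 and 8.94 CPM to 40.2, 35.7 and 46.1 CPM (2.28 ± 0.13, adjusted p = 2.65e-04, edgeR). The phosphatase Cdc25a, which activates Cdk2, fell from 6.92, 7.92 and 6.61 CPM to 3.87, 4.59 and 3.97 CPM (-0.79 ± 0.17, adjusted p = 0.0175). The retinoblastoma-related Rbl1 (-1.31 ± 0.28) and cyclin A2, Ccna2 (-1.51 ± 0.41), also fell. Cdkn1c, an inhibitor of cyclin-dependent kinases, rose, and Rbl2, E2f6, Lin54, Cdkn1b and Skp2 fell, each named after its value was seen. DESeq2 called 10 lower and limma voom 7 (12.3% and 9.99% of all genes). In edgeR the number lower was 1, 10 and 3 without WT 1, WT 2 and WT 3 (5.03%, 11.7% and 6.76% of all genes). It was 2 without KO 2 (4.76%) and 0 without KO 1 or KO 3 (1.52% and 6.04%). At an unadjusted p under 0.05, 8 were lower without KO 1 and 12 without KO 3. Of the 14069 genes tested, 1828 and 2394 were lower by that rule. The inhibitor Cdkn1a, also named after its values were seen, was also uneven among wild-type livers, at 98.7, 229.6 and 50.9 CPM in WT 1 to WT 3 and 150.7 to 165.9 CPM in the knockout livers.

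**Figure D5:**
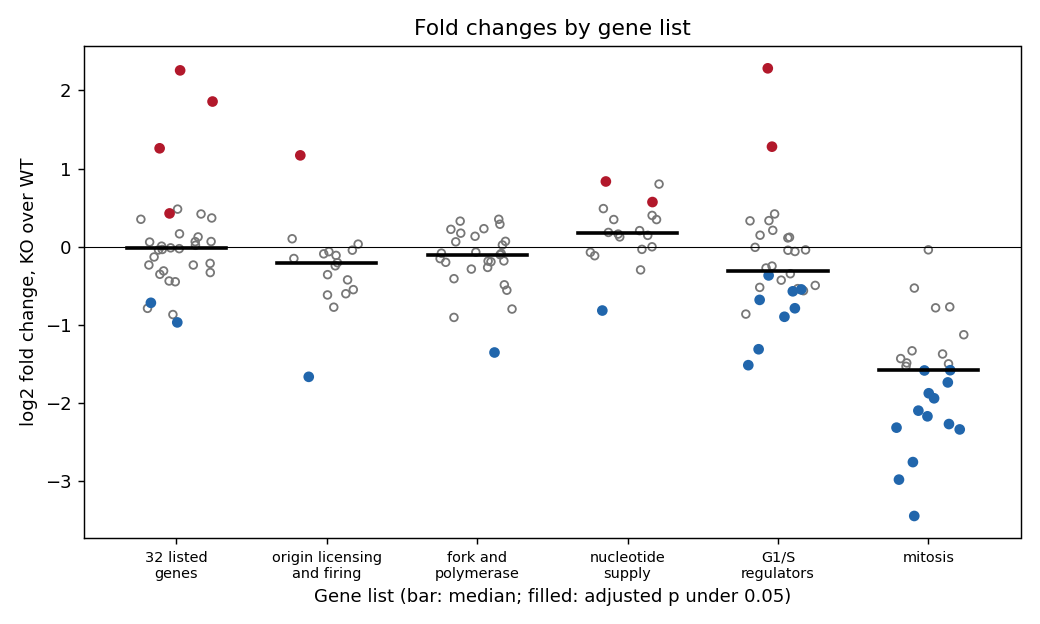
Log2 fold change (knockout over wild type, y axis) of each tested gene of 6 lists (x axis), with bars at the medians and filled points for an adjusted p under 0.05, blue for lower and red for higher. The median is -0.02 for the 32 replication and G1/S genes and -1.58 for the mitosis genes.

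Bulk liver RNA does not tell fewer dividing cells from less RNA of a gene per cell, nor which cells carried these transcripts. Markers of other cell types were therefore summed in each library. Beside the calls given for them, edgeR called 10.6% of all genes lower and 9.8% higher. The 12 Kupffer cell markers had 328, 153 and 245 CPM in WT 1 to WT 3 and 83.4 to 112 CPM in the knockout livers, and 7 of 12 fell, with none at 0 in any library. The number lower was 4, 10 and 4 without WT 1, WT 2 and WT 3 (5.03%, 11.7% and 6.76% of all genes). It was 2, 3 and 3 without KO 1, KO 2 and KO 3 (1.52%, 4.76% and 6.04%). The wild-type order of this Kupffer cell sum, WT 1 above WT 3 above WT 2, was that of the mitosis genes. Marker by marker, 10 of the 12 were highest in WT 1 and 2 in WT 3. The 10 neutrophil markers had 120, 39.2 and 18.7 CPM in WT 1 to WT 3 and 80.6 to 111 CPM in knockout livers, with 0 of 7 tested passing in edgeR, DESeq2 or limma voom (0 at an unadjusted p under 0.05 in edgeR) and Mpo, Elane, Ngp and Camp at 0 in at least 1 library. WT 1 was the highest wild-type library for all 7, and without it 5 of the 7 passed as higher (6.47% of all genes). The median log2 fold change of the 7 was 1.83 without WT 1 against 0.83 with it. The 10 erythroid markers had 305 to 419 CPM in wild-type and 872 to 1158 CPM in knockout livers. They include the hemoglobin genes Hba-a1 and Hbb-bs, so this sum is not separate from the hemoglobin share above. Of the 7 tested, 4 were higher and 1 lower, and the precursor genes Gata1 and Rhag were at 0 in at least 1 library. The 10 T and NK cell markers came to 1.47 to 2.04 CPM in wild-type and 3.76 to 5.40 CPM in knockout livers, with 1 higher and Cd2 at 0 in 1 library. Without 1 library, 2 to 4 erythroid markers and 0 to 2 T and NK cell markers were called higher (2.68% to 9.6% of all genes).

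The B and plasma cell list had 182 to 403 CPM in wild-type and 306 to 387 CPM in knockout livers, most of it Sdc1, which hepatocytes also express, with Pax5 at 0 in at least 1 library, and 2 of its genes rose (Jchain and Igkc). The summed cholangiocyte markers were at 80.5 to 109 CPM in wild-type and 122 to 312 CPM in knockout livers, with 2 of 5 tested higher. Stellate markers were at 167 to 222 CPM and 107 to 234 CPM, with 1 of 8 higher and 1 lower. Sinusoidal endothelial markers were at 161 to 210 CPM and 128 to 194 CPM, with 1 of 8 lower. Without KO 1, when 4.2% of all genes were called, none of these 3 calls was made in edgeR (3 lower and 1 higher at an unadjusted p under 0.05). At that unadjusted threshold, 1828 of the 14069 genes tested were lower and 1788 higher. The 4 fetal hepatocyte markers were at 1.02 to 1.98 CPM and 1.60 to 3.43 CPM, with no call and H19 at 0 in at least 1 library, and the 8 hepatocyte markers at 52590 to 69290 and 57664 to 77205 CPM, also with no call. The part of these cell types in the levels of the replication and mitosis genes was not tested.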

How the data were processed

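6 poly(A) RNA libraries of mouse liver were deposited as 1 table of expected counts per gene, estimated counts that need not be whole, unscaled, per the file headers and the values. Per the submitters' processing notes, Trim Galore, STAR, Salmon and GRCm38 were used, with no versions or settings. Annotation and strand setting: not given in the sources used here. Counts were rounded, filtered with filterByExpr, scaled by TMM and tested on genotype with edgeR 4.0.16 in R 4.3.3 (robust glmQLFit). SEs were derived from each log2 fold change and its F. CPM use TMM-scaled totals. Transcript lengths (APPRIS principal) and positions came from GENCODE M21. The fit was tested on simulated counts. No libraries were duplicates, since each pair within a group differed by at least 34.1 times counting noise.

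The 32 genes and all lists were chosen with earlier results of these data known. Values in every library are given for each of the 32 genes that passed, the 6 with the largest and the 4 with the smallest wild-type SD. Of other pathway lists up to 4 genes with the lowest p are named, and all that passed if 5 or fewer. Lists were of origin licensing, forks, nucleotide supply, G1/S regulators, mitosis and 10 cell types. Ctps1 was matched through a RefSeq synonym. Alternatives were other scalings, filters and thresholds, no robust estimation, DESeq2 1.42.0, limma voom (3.58.1), a replicate block and leaving out each library. Leaving out mitochondrial and hemoglobin genes was added after seeing the data. With 3 libraries per group an exact permutation test cannot go below 0.1.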

Additional observations from a re-analysis of the deposited data

How the results depend on the processing

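The 2 genes lower in knockout livers became 1 with limma voom or the replicate block, 4 at a threshold of 0.1 and 0 to 3 when 1 library was left out. The 4 higher became 2 with library totals alone, 1 with the replicate block and 0 to 3 when 1 library was left out. Without KO 1 none of the 32 passed in edgeR (2 lower and 4 higher at an unadjusted p under 0.05). Of the 14069 genes tested, 1828 were lower and 1788 higher in that run at the same unadjusted threshold. No other tool was run without KO 1. The count over all genes, 2871, was 1468 with the replicate block and 603 to 3080 when 1 library was left out. The median wild-type SD of 0.288 was 0.186 with a pseudocount of 2 CPM and 0.165 to 0.285 when 1 wild-type library was left out. The median log2 fold change of the 32 genes stayed within -0.15 to 0.10 in every alternative run. Rrm2 and Cdk2 passed in every alternative run except without KO 1. No named gene that passed changed direction. Of those that did not pass, 14 changed sign in some alternative, all with a log2 fold change within 0.31 of 0. The titles do not say whether the same number pairs a wild-type with a knockout library. Deviations from the group means correlated across genes at -0.08, 0.01 and -0.09 for the same-numbered pairs. For the other pairs they correlated at -0.12 to 0.16. With 3 libraries per group these values constrain one another and cannot exclude a pairing, so the block is given as a check. Depth limited Cdc6 and Gins2 most.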
